A study of Mus musculus with 6 samples.

Results

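The 1000 strongest regions of open chromatin that all 6 ATAC-seq libraries shared were examined. The peaks of the 6 libraries were merged where they overlapped by 1 bp or more, which gave 89410 regions, and 29849 of them (33.4%) had a peak in every library. Each peak was ranked within its own library by the fold of its signal at the summit over the local background, as a percentile called its standing. The 1000 members were chosen by the mean of these standings over the 6 libraries, among the 29106 shared regions of chromosomes 1 to 19. They were 3.44% of those regions and 1.12% of all regions, and they covered 1.04 Mb of the 66.9 Mb that all regions covered. Their high fold is therefore the rule itself, and it is given below as a description.

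The libraries came from an immortalized mouse osteoblast line that carries floxed alleles of Fam20c (OB Fam20c f/f, 3 libraries, labelled control) and from OB Fam20c KO cells that were derived from that line with a Cre recombinase lentivirus (3 libraries, labelled Fam20c knockout). All were grown under 1 set of culture conditions, and 50000 nuclei of each were treated with the transposase for 30 min at 37 °C. Each group is a single cell line, and nothing says that its libraries came from separate derivations, so the spread between libraries may be technical. Fam20c encodes a kinase of the secretory pathway that phosphorylates secreted proteins of bone and tooth.

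In ATAC-seq the transposase Tn5 cuts DNA that is not wrapped in nucleosomes, and the cuts pile up over promoters, enhancers and other bound sites. Promoters of genes that every cell uses are usually rich in CpG, lie free of nucleosomes just before the transcription start and are bound by general activators such as NFY, ETS, SP/KLF and NRF1 factors. Enhancers that mark a cell type, with factors such as RUNX2 or AP-1 in osteoblasts, lie further from genes and are often more variable.

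The 6 lists held between 32958 peaks (OB Fam20c KO replicate 3) and 74797 peaks, and the 5 other than OB Fam20c KO replicate 3 held at least 62781. That library stood apart, and results that rest on it are given with and without it. By the read totals of the study it was not the shallowest. The lists hold no read counts, so the depth behind a single peak cannot be read from them. Of 15 osteoblast markers, 13 had a peak over the gene or within 3000 bp in each of the 6 libraries, Bglap and Ibsp being the exceptions. Markers of other cell types had peaks as well. In the 5 libraries other than OB Fam20c KO replicate 3, 3 of 3 chondrocyte, endothelial, fat, blood and myeloid and neural genes and 2 of 3 muscle and epithelial genes had one. In OB Fam20c KO replicate 3 it was 3 of 3 chondrocyte and endothelial, 2 of 3 fat, blood and myeloid and epithelial, 1 of 3 neural and 0 of 3 muscle genes. The presence of peaks thus does not set the osteoblast apart in any of the 6 libraries, as all chondrocyte and endothelial genes had one in each. The shared region at Fam20c had a summit fold of 10.3, 8.51 and 8.23 in the 3 OB Fam20c f/f libraries and of 11.6, 11.2 and 9.06 in the OB Fam20c KO libraries, and the lists cannot show the deletion.

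Promoter sequences of 6 members follow, because most members lay at gene starts and these letters are what the assay found open. They are RefSeq sequences on GRCm38.p6 (the coordinates of mm10), from 250 bases before to 50 after the start and on the strand of the gene. Capitals mark the ETS motif CCGGAAG and the NFY motif CCAAT on either strand. Abhd18 (chr3:40894009-40894308, plus strand), an abhydrolase gene, was the member of highest standing with a listed start inside it. Snrpe (chr1:133610231-133610530, minus strand), a core protein of spliceosomal particles, Psma2 (chr13:14612992-14613291, plus strand), a subunit of the proteasome core, and Mrpl44 (chr1:79775768-79776067, plus strand), a protein of the large mitochondrial ribosomal subunit, led their gene lists. Zfp619 (chr7:39517516-39517815, plus strand) was the highest zinc finger gene with a listed start, and Ift74 (chr4:94614241-94614540, plus strand), a subunit of the intraflagellar transport machinery, had the largest fall in OB Fam20c KO.
Abhd18: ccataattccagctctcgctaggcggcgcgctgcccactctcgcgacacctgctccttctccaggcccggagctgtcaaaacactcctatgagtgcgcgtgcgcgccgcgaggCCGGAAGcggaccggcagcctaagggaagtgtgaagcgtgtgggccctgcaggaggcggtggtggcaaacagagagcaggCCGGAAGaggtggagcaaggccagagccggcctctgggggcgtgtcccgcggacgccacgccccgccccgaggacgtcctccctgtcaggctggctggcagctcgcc
Snrpe: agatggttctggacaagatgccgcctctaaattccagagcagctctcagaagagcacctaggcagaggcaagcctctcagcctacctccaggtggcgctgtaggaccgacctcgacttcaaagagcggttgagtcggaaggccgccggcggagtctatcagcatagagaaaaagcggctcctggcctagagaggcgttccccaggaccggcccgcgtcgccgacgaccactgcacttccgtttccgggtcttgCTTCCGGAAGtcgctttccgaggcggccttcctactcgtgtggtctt
Psma2: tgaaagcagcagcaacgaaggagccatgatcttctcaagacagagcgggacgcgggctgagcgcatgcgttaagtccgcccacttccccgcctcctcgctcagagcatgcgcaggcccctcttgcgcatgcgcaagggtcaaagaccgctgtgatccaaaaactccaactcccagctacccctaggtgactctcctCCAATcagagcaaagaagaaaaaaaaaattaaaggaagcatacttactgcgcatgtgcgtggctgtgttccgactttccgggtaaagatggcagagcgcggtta
Mrpl44: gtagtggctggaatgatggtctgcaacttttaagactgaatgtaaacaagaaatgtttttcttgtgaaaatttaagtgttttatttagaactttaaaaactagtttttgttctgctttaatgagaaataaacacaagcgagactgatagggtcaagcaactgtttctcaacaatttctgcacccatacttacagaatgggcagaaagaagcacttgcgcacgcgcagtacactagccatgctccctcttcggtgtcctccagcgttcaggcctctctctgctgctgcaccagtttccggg
Zfp619: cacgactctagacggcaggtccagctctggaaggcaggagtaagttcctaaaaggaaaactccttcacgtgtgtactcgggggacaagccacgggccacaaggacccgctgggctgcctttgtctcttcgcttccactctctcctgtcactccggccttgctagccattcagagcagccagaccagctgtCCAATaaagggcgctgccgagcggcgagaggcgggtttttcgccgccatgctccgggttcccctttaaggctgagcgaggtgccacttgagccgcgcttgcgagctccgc
Ift74: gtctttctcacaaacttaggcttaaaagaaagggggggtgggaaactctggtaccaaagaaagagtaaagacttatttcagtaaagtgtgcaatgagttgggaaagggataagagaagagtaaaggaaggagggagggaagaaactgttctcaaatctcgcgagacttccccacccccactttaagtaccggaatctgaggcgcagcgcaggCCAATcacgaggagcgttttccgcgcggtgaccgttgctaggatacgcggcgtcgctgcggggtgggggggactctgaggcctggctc

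The sequences differed in what they held. The Abhd18 and Snrpe promoters had 2 ETS matches each, which in Snrpe overlap as 1 palindrome, and those of Psma2, Zfp619 and Ift74 had 1 NFY match each. The Mrpl44 promoter had neither, with 7 CpG and 42.3% G and C, against 29 CpG and 69.3% in Abhd18.

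The members had a median summit fold of 17.4, 14.1 and 15.9 in OB Fam20c f/f replicates 1 to 3 and of 19.4, 19.3 and 12 in OB Fam20c KO replicates 1 to 3. The other shared regions had medians of 9.95, 7.97 and 9.54 and of 10.8, 11 and 5.81 in the same order. The OB Fam20c KO group thus held both the highest values and the lowest. The groups overlapped at the members, because OB Fam20c KO replicate 3 was below every OB Fam20c f/f library. The median standing of the members was 98.5 to 98.8 in 5 libraries and 96.8 in OB Fam20c KO replicate 3, in which the lowest member stood at 80.1 and which gave 559 of the members their lowest standing. A standing also depends on the length of the list, and the list of that library was the shortest. Ranked by fold among the shared regions only, OB Fam20c KO replicate 3 gave 372 members their lowest standing and OB Fam20c f/f replicate 3 gave 265.

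**Figure D1:**
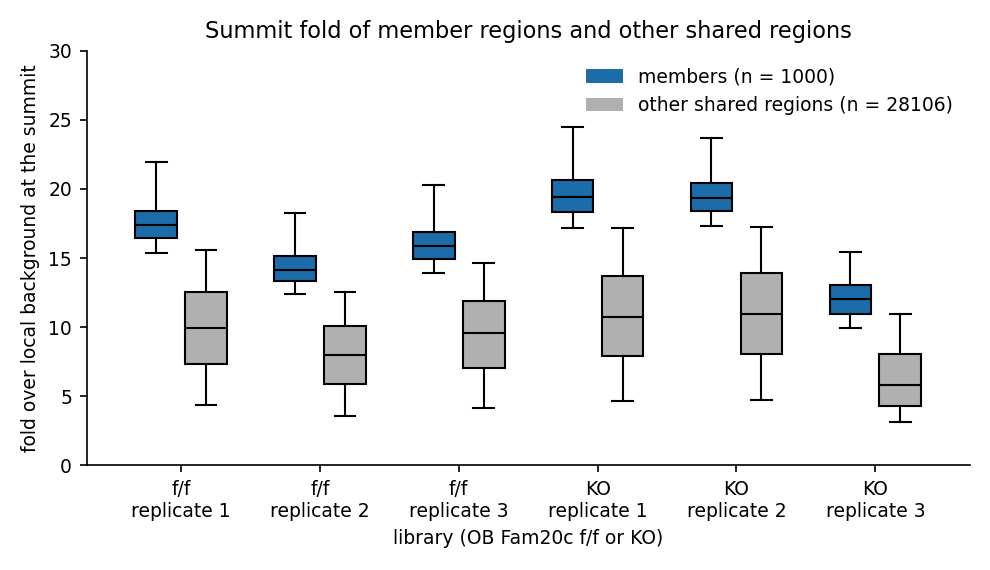
Fold over local background at the summit (y axis) in each library (x axis), for the 1000 members and the 28106 other shared regions of chromosomes 1 to 19. Boxes span the quartiles with the median as a line and whiskers reach the 5th and 95th percentiles; the members were chosen by these values, and both sets sat lowest in KO replicate 3, with medians of 12 and 5.81.

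The mean standing ran from 99.9985 to 96.4416. The lower end was continuous with the regions left out. The last members were at Zfp28 (96.4529), Kbtbd8 (96.4504) and Adal (96.4416), and the first regions outside were at Mtch2 (96.4338), Stard4 (96.4337) and Ndufaf5 (96.4325). Adal stood at 98.4 or more in 5 libraries and at 83.3 in OB Fam20c KO replicate 3, and Kbtbd8 had its highest standing, 99.3, in that library. Few members were at the top of every list. Between 501 and 647 members were among the 1000 strongest shared regions of a single library, and 148 were in all 6.

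The strongest members were short regions away from gene starts. The 10 with the highest standing were 237 to 741 bp wide. They lay 9374 to 696604 bp from the nearest start of a protein-coding gene (span end where no start was listed). The gene names thus only give their place, and such a region can lie inside a gene. The first, near Csmd1 (chr8:15519777-15520124), had folds of 48.6, 39.6 and 44.3 in OB Fam20c f/f and of 49.2, 46.4 and 33.9 in OB Fam20c KO. The third, near Chl1 (chr6:103649049-103649285), had 37.2, 30.5 and 32.3 in OB Fam20c f/f and 39.9, 37.0 and 34.6 in OB Fam20c KO. The one near Rab10 (chr12:3109872-3110115) had 35.9, 31.2 and 31.9 against 35.4, 32.2 and 35.3. In these 3 regions the groups overlapped. OB Fam20c KO replicate 3 was the lowest library at Csmd1 and within the range of the others at Chl1 and Rab10. The other 7 were near Neto1, Txndc11, Tmem196, Cr2, Mc2r, Filip1l and Rpusd4, and of the 10 only the region near Mc2r passed the limma test described below (lower in OB Fam20c KO by 0.55 ± 0.13 (SE) standard deviations, adjusted p = 0.019). The peak near Rab10 was 243 or 244 bp wide in all 6 libraries, and its −log10 q was highest in OB Fam20c KO replicate 3 (3596). Whether any of the 10 was on a list of regions with excess signal was not tested.

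When the members were chosen from 5 libraries, their standing could be read in the library left out. The median standing there was 98.6, 98.7 and 98.4 in the 3 OB Fam20c f/f libraries, 98.7 and 98.8 in the first 2 OB Fam20c KO libraries and 93.2 in OB Fam20c KO replicate 3. Of the 1000 regions so chosen, 995 to 1000 were in the highest 10% of the left-out list for the first 5 libraries. For OB Fam20c KO replicate 3 this was 611, and 15 of the 1000 regions had no peak in it. Its list was the shortest, so its highest 10% held fewer peaks and the counts are at unlike cut-offs. The median standings have the same limit and leave out regions without a peak. Between 938 and 957 of the members stayed when 1 of the first 5 libraries was left out, and 714 when OB Fam20c KO replicate 3 was.

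Most members lay at genes. Within 1 kb of an end of a protein-coding gene there were 779 of the 1000 members (77.9%, exact 95% interval 75.2% to 80.4%), against 34.2% of the other shared regions and 16.4% of all regions of these chromosomes. The share was 71.9% in the next 1000 regions by standing, and the members held 5.30% of all regions at gene ends. Ends of 2 or more genes were within 1 kb of 11.4% of the members and of 6.16% of the other shared regions. A further 110 members lay inside a protein-coding gene and 111 outside every protein-coding gene. A listed transcription start was inside 665 of the 978 members on chromosomes with start sites (68.0%) and inside 27.8% of the other shared regions. When OB Fam20c KO replicate 3 was not used to choose, 68.4% of the members were at gene ends. The intervals cover counting error only, and neighbouring regions are not independent.

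The place of the members changed with their rank. Of the 50 highest, 12 (24%) were at a gene end, their median width was 591 bp and 52% lay outside every protein-coding gene. Of the other 950, 80.7% were at a gene end, with a median width of 1061 bp. From rank 101 on, the share in bins of 50 stayed between 76% and 90%. None of the members was among the 1000 widest merged regions of the series, and their median merged width of 1049 bp was below the 1117 bp of the other shared regions. The peaks of single libraries did not all go this way. Members had the wider median in OB Fam20c f/f replicates 1 (877 against 841 bp) and 2 (985 against 959) and KO replicate 3 (737 against 603). They had the narrower one in f/f replicate 3 (1019 against 1029.5) and KO replicates 1 (863 against 880) and 2 (902 against 923).

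**Figure D2:**
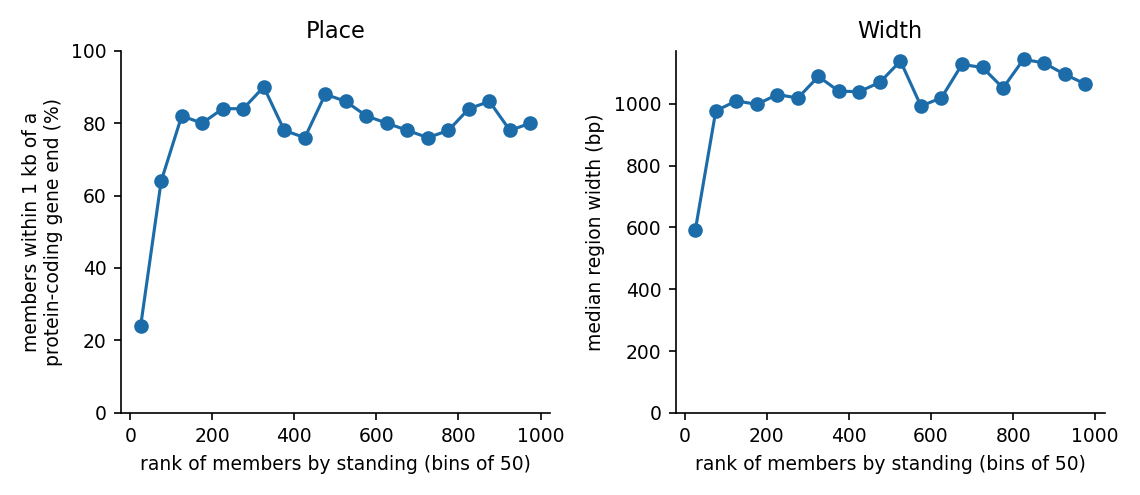
Share of members with an end of a protein-coding gene within 1 kb (left, percent) and median width of the merged region (right, bp), by rank in bins of 50 members (x axis). The first bin had 24% and 591 bp, and the bins from rank 101 on had 76% to 90%.

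The summits of the members were close to the start and agreed between libraries. In the 665 members with a start inside, the median summit was 10 bp before to 7 bp after the start in the 6 libraries, and 77.9% to 83.2% of summits were within 100 bp of it. In the other shared regions with a start inside, 54.7% to 65.6% were. Between a pair of libraries the median distance of summits was 2 to 22 bp at the members and 8 to 49 bp at the other shared regions. The closest pair was OB Fam20c KO replicates 1 and 2 (2 bp), and the 5 pairs with OB Fam20c KO replicate 3 had 10 to 22 bp.

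**Figure D3:**
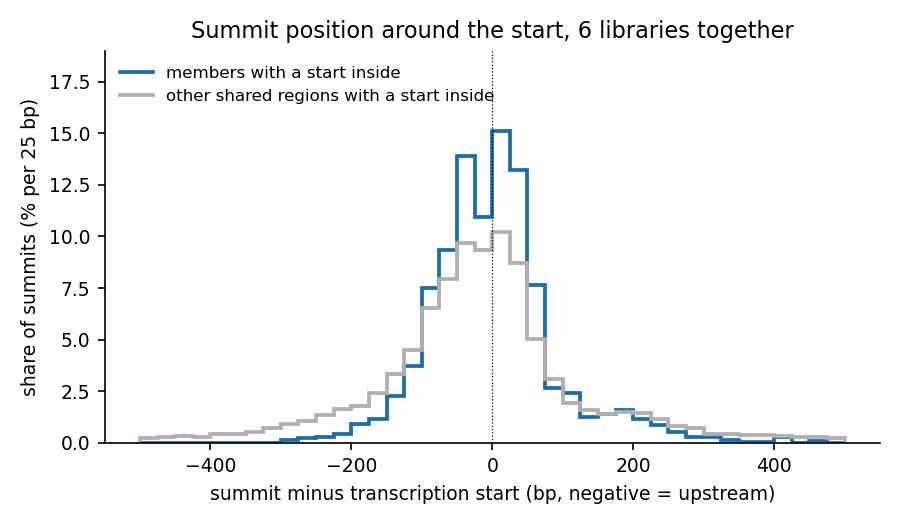
Summit position relative to the transcription start (x axis, bp, negative before the start) as the share of summits in each step of 25 bp (y axis, percent), over all 6 libraries, for 665 members and 7623 other shared regions with a start inside. The members were more tightly placed, with 77.9% to 83.2% of summits within 100 bp in the single libraries against 54.7% to 65.6%.

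The groups were compared on summits and widths, which the rule did not use. The mean of the median summit distances was 6.17 bp within groups and 9.33 bp between groups, a difference of 3.17 bp (exact permutation test over 10 splits, one-sided, p = 0.1, the smallest it can give). Without OB Fam20c KO replicate 3 the difference was 0.75 bp (exact p = 0.3), and without OB Fam20c f/f replicate 2 it was 1.25 bp (exact p = 0.5). The median peak width at the members was 877, 985 and 1019 bp in OB Fam20c f/f (960 ± 74.4, SD, n = 3) and 863, 902 and 737 bp in OB Fam20c KO (834 ± 86.2, SD, n = 3). The groups overlapped, and the difference of -126 bp was not past the threshold (exact permutation test, two-sided, p = 0.2, where 3 against 3 cannot go below 0.1). Without OB Fam20c KO replicate 3, the difference of OB Fam20c KO minus f/f was -77.7 bp.

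The gene lists examined differed in how many of their genes had a member, from 16.7% for mitochondrial ribosomal proteins to none for several lists, the osteoblast markers among them. Of 21887 protein-coding genes, 892 (4.08%) had a member within 1 kb. Among mitochondrial ribosomal proteins, which build the ribosome of the mitochondrion, 13 of 78 (16.7%) did. They were Mrpl15, Mrpl17, Mrpl32, Mrpl33, Mrpl44, Mrps9, Mrps14, Mrps17, Mrps18c, Mrps27, Mrps28, Mrps33 and Mrps35. Zfp genes, most of them DNA-binding zinc finger proteins, had 49 of 397 (12.3%), the proteasome 6 of 51 (11.8%) and translation factors 7 of 71 (9.86%). The last list was taken by symbols that start with Eif or Eef, and the proteasome list by symbols from Psma to Psmg, whatever the role of the protein. Cytosolic ribosomal proteins had 5 of 85 (5.88%), namely Rpl21, Rpl22l1, Rpl27, Rpl37 and Rps29, and splicing factors had 2 of 44 (4.55%), Snrpe and Hnrnpm. Among genes with a shared region within 1 kb the share was 7.95% over all genes, 17.8% for mitochondrial ribosomal proteins, 17.5% for Zfp genes and 14.0% for the proteasome.

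Without OB Fam20c KO replicate 3 in the choice, the counts were 13 for mitochondrial ribosomal proteins, 51 for Zfp genes, 6 for the proteasome and 4 for translation factors, beside 782 of all protein-coding genes (3.57%). The count of translation factors thus rested in part on that library, and their share without it was 5.63%.

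**Figure D4:**
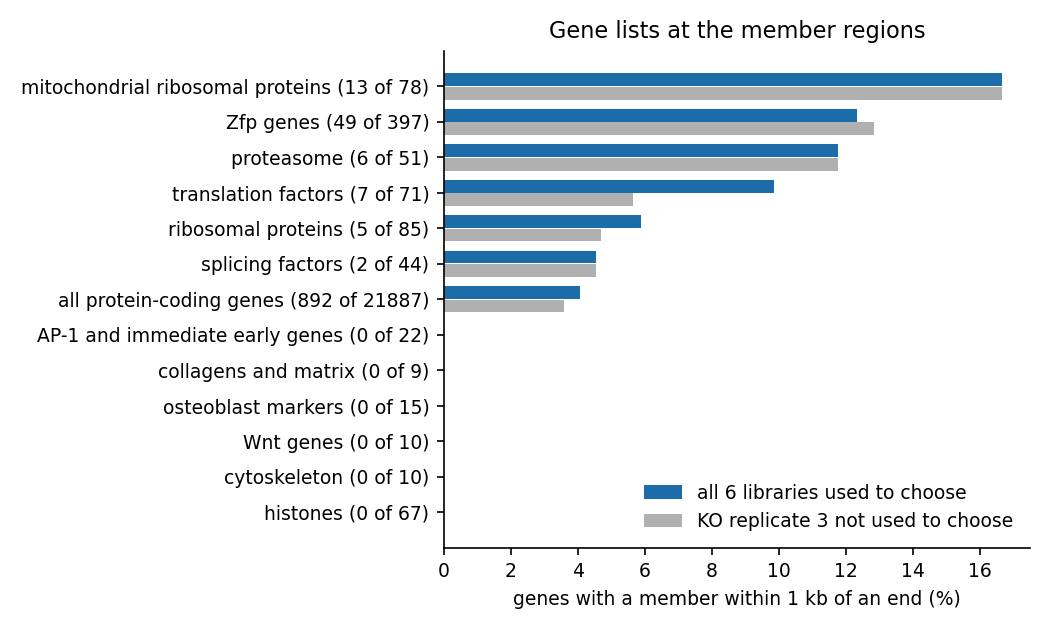
Share of the genes of each list (y axis, with the number of genes with a member of the number in the list) that had a member within 1 kb of an end (x axis, percent), with all libraries choosing the members (blue) and with KO replicate 3 left out (grey). Only lists of 9 or more genes are drawn; mitochondrial ribosomal proteins were highest with 16.7% and all protein-coding genes had 4.08%.

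None of the 67 histone genes, 22 AP-1 and immediate early genes, 15 osteoblast markers, 10 Wnt genes, 10 cytoskeleton genes, 9 collagen and matrix genes or 3 calpain genes had a member. Most of these genes had open chromatin in every library, as 58 of the histone genes, 19 of the AP-1 and immediate early genes and 11 of the osteoblast markers had a shared region. The best osteoblast marker, Spp1, which encodes the matrix protein osteopontin, ranked 11207 with folds of 9.98, 8.09 and 10.1 in OB Fam20c f/f and of 12.2, 11.9 and 8.76 in OB Fam20c KO. Runx2, the master regulator of the lineage, ranked 15034, and Col1a1, the main collagen chain of bone, ranked 26243. The best of the immediate early genes was Klf2 at rank 6588, of the Wnt list Senp2 at 3163 and of the histones H3c6 at 2499. The median standing was 58.5 for osteoblast markers and 88.9 for mitochondrial ribosomal proteins. Of the markers of other cell types none had a member either. Spi1 (blood and myeloid, rank 5922), Tubb3 (neural, 7057) and Cebpa (fat, 9753) ranked above Spp1. Sox9 (chondrocyte, 16430) and Krt8 (epithelial, 20685) ranked below it. Over all protein-coding genes with a shared region the median rank was 8202. With a member at 4.08% of all genes, a short list can hold none.

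At the first 3 of the leading members of the lists the folds of the groups overlapped. Zfp960 (chr17:17063517-17064565, rank 35) had folds of 20.2, 17.8 and 19.9 in OB Fam20c f/f and of 26.8, 24.3 and 19 in OB Fam20c KO, with replicate 3 of the latter inside the range of the former. The region shared by Mrpl44 and Wdfy1 (rank 69) had 20.6, 16.1 and 20.01 against 21.5, 21.7 and 12.4. Eif2s2 (chr2:154892192-154893340, rank 120), a subunit of the factor that brings the initiator tRNA to the ribosome, had 18.2, 14.5 and 17.2 against 21.7, 20.3 and 12.7. In all 3 the OB Fam20c KO values lay on both sides of at least 1 OB Fam20c f/f value. The leaders of the proteasome, ribosomal protein and splicing lists, at Psma2 (rank 249), Rpl22l1 (rank 227) and Snrpe (rank 476), had folds of 12.4 to 21.3 over the 6 libraries.

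The Zfp members were spread over 13 chromosomes with 10 regions each on chromosomes 7 and 17. Most members were not next to another member. There were 40 runs of 2 or more members with no other merged region between them, which held 88 members. Members were 1.12% of all regions, and how many runs a scattered set of that size would give was not tested. The longest had 6 members on chromosome 10 between 82047660 and 82354860, at Zfp873, BC024063, AU041133 (2 regions), Zfp938 and Gm4924. The share of shared regions that were members ran from 1.92% on chromosome 15 to 4.52% on chromosome 13.

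Promoter letters were read in the RefSeq promoters of 300 bases, of which 798 had their start in a member, 9556 in another shared region and 10909 in neither. The ETS motif CCGGAAG was in 31.7% of member promoters, 19.2% of promoters in other shared regions, 3.44% of the rest and 11.6% of all. The NFY motif CCAAT was in 52.1%, 37.2%, 38.1% and 38.2% of these sets. Promoters of Zfp members, of which 50 were listed, held CCAAT in 66% and CCGGAAG in 26%. The SP/KLF motif GGGCGGG went the other way between members and other shared regions, with 43.7% against 53.1% and 33.9% of all promoters. GCGCATGC (NRF1) was in 7.64%, 5.76% and 3.52% of member, other shared and all promoters.

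TATAAA was in 6.02% of member promoters, 5.69% of promoters in other shared regions and 12.6% of all, and the AP-1 motif TGANTCA in 3.88%, 4.60% and 6.99%. The RUNX motif TGTGGTT was in 4.51%, 2.92% and 4.71% of member, other shared and all promoters, and AGGGGGC, a part of the CTCF motif, in 12.2%, 18.1% and 12.9%. In the same order the remaining motifs were AAGATGGCG (YY1, 3.63%, 3.33% and 1.83%), TGACGTCA (CRE, 4.76%, 3.45% and 2.23%), CTCGCGAGA (BANP/ZBTB33, 1.75%, 1.64% and 0.964%), TTCCCGC (E2F, 9.65%, 9.21% and 5.95%), CANNTG (E-box, 63.8%, 59.96% and 69.02%) and CATTCC (TEAD, 10.5%, 10.9% and 13.6%). All were searched on both strands, matches of different motifs could share bases, and a match is a description of letters. Member promoters had a median of 21 CpG and 59.7% G and C, against 23 CpG and 62.7% in other shared regions and 4 CpG and 49.7% in the rest. Zfp member promoters had 12 CpG and 53.7%. With OB Fam20c KO replicate 3 left out of the choice, the shares were 32.1% for ETS, 50.6% for NFY and 40.03% for SP/KLF. The share then lay on the other side of that in other shared regions for AP-1 (5.41%), E2F (8.12%) and BANP/ZBTB33 (1.42%).

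To ask whether the members changed with the loss of Fam20c, the −log10 q of each shared region was ranked within its library, turned into normal scores (in standard deviations of the ranked values) and tested with limma over all 29106 regions. All 1000 members entered. At an adjusted p under 0.05, 22.2% of all regions were called, 12% higher and 10.2% lower in OB Fam20c KO. Of the members, 127 (12.7%) were called, 31 higher and 96 lower, beside the background of 22.2%. Higher were 3.1% of the members against 12% of all regions, and lower were 9.6% against 10.2%. The −log10 q grows with the fold, so the choice also held it high at the members (median standing 87.9 to 91.1). How far this limits a rise or a fall was not tested, and the lower share of calls is not read as a trait of the members. The median difference was -0.06 at the members and -0.02 over all regions. Without OB Fam20c KO replicate 3, 26.6% of all regions and 147 members were called, 47 higher and 100 lower.

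When the fold over the local background was ranked in place of the −log10 q, 2.94% of all regions and 1 member were called. The members were chosen for a high fold in all 6 libraries, which leaves little room for a difference in it, so nothing is read from that count of members. The −log10 q grows with the number of reads under a peak as well as with the fold, while the fold is set against the background around the peak.

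The called members gathered on a few chromosomes. On chromosome 13, 29 of 44 members (65.9%) were lower in OB Fam20c KO, against 34.0% of all regions tested there. On chromosome 16 it was 17 of 44 (38.6% against 33.4%) and on chromosome 11 it was 13 of 61 (21.3% against 17.7%). Chromosome 4 had 11 of 49 members higher (22.4% against 16%) and 8 lower (16.3% against 11.2%). These 4 chromosomes, chosen after their values were seen, held 198 members and 79 of the 127 calls. The other 802 members had 48 calls (5.99%), against 19.8% of all regions of those chromosomes. This gap carries the limit of the choice given above. On chromosomes 15 and 19 limma called 0 of 40 and 0 of 29 members, with 4 and 1 at an unadjusted p under 0.05. Of all regions tested, 12.8% were lower and 14.5% higher on chromosome 15, and 8.89% and 9.89% on chromosome 19. On chromosome 13 the median difference in −log10 q was -0.52 at the members. Over all 974 regions tested there, most of which were not chosen by their fold, it was -0.33 by −log10 q and -0.02 by fold.

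**Figure D5:**
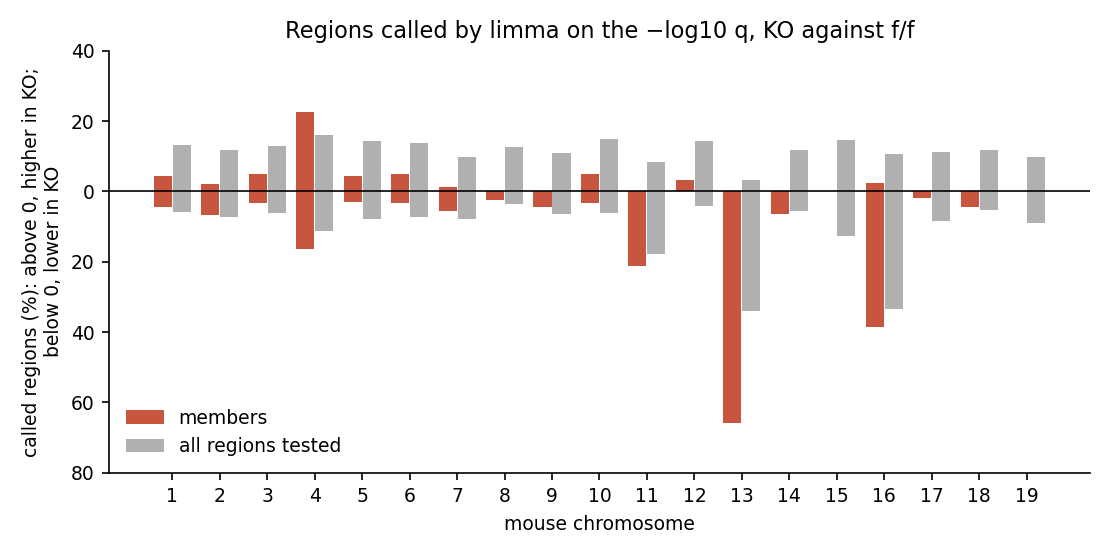
Share of regions called by limma on the −log10 q (y axis, percent; above 0 higher and below 0 lower in KO) on each chromosome (x axis), for the members and for all regions tested. Members on chromosome 13 had the highest share, 65.9% lower, and those on chromosomes 15 and 19 had no call.

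Within chromosomes the calls lay in stretches, which were also picked after their values were seen. Between 20 and 40 Mb of chromosome 16 all 13 members were lower, as were 78.1% of all regions tested there. Between 20 and 50 Mb of chromosome 4, 11 of 13 members were higher, against 47.9% of all regions, and between 90 and 100 Mb both members were lower, against 97.2%.

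The largest falls were at Ift74 and Fggy on chromosome 4 and at Nrros, Senp5 and Tctex1d2 on chromosome 16. At Ift74 (chr4:94613948-94615188) the −log10 q was 391, 391 and 614 in OB Fam20c f/f and 184, 225 and 32.4 in OB Fam20c KO, and the groups did not overlap. Among the shared regions this moved the region from a standing between 99.4 and 99.6 to one between 69.7 and 75.1. The difference was -1.98 ± 0.11 (SE) standard deviations (limma, adjusted p = 0.000108). Its summit fold, by which it was chosen, was 18.2, 13.6 and 15.1 against 20.3, 19.6 and 10.3.

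Fggy (chr4:95556945-95558180), which encodes a carbohydrate kinase, had a −log10 q of 378, 391 and 568 against 188, 288 and 48.9 (difference -1.67 ± 0.12 (SE), limma adjusted p = 0.000159). Senp5 (chr16:32002541-32003741), a protease that removes SUMO from proteins, had 458, 525 and 817 against 342, 448 and 55.9. The groups at Senp5 did not overlap, and the standing fell from at least 99.8 to at most 95.2 (difference -1.46 ± 0.16 (SE), limma adjusted p = 0.000672). Tctex1d2, a dynein light chain gene, fell by 1.46. The region 15770 bp from the start (or span end) of Nrros fell by 1.48.

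The largest rises were on chromosomes 4 and 5. Ufl1 (chr4:25281128-25282156), the ligase that attaches the modifier UFM1, had a −log10 q of 167, 167 and 306 in OB Fam20c f/f and of 437, 605 and 124 in OB Fam20c KO. The raw values overlapped through OB Fam20c KO replicate 3, whose −log10 q at the members was a median of 0.218 of the median of the other 5 libraries, and the standing rose from between 84.7 and 90.5 to between 98.5 and 99 (difference 1.07 ± 0.12 (SE), limma adjusted p = 0.000737). A region 15023 bp from the start (or span end) of Ccnc, the cyclin of the Mediator kinase module, rose by 1.11. Ndufaf4, an assembly factor of respiratory complex I, rose by 0.93. Mms22l, which acts in repair of stalled replication forks, rose by 0.92 and Vamp9 by 0.74.

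Most of the calls in the gene lists were on the chromosomes named above, and they stand beside 10.2% lower and 12% higher over all regions. Of the 6 members of the proteasome list 4 were lower, Psma2 and Psmg4 on chromosome 13, Psmd12 on chromosome 11 and Psmd2 on chromosome 16, while Psmb2 and Psmd4 were not called. Of the 13 mitochondrial ribosomal members 3 were lower, at Mrps27, Mrpl32 (the region it shares with Psma2) and Mrps17. Of the 48 Zfp regions 3 were lower, Zfp748, Zfp87 and Zfp322a, all on chromosome 13, and 1 was higher, shared by Zfp28 and Zfp78. Of the 7 translation factor members Eef1e1, on chromosome 13, was lower. None of the 5 ribosomal protein and 2 splicing factor members was called by limma, and 0 of them had an unadjusted p under 0.05.

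Across the members as a set, the standing by −log10 q among the shared regions had a median of 90.9, 90.6 and 91.1 in OB Fam20c f/f (90.9 ± 0.26, SD, n = 3) and of 90.2, 89.2 and 87.9 in OB Fam20c KO (89.1 ± 1.17, SD, n = 3). The groups did not overlap, and the difference was -1.75 (exact permutation test, two-sided, p = 0.1, the smallest that 3 against 3 can give). Without OB Fam20c KO replicate 3 it was -1.15.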

How the data were processed

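ATAC-seq peak lists were used of the OB Fam20c f/f group (3 libraries) and the OB Fam20c KO group (3 libraries), with groups and replicate numbers from the labels. Per the paper's methods and the labels, reads were trimmed (Trimmomatic) and mapped to mm10 (BWA) by the authors, who called peaks in each library separately (MACS2 2.1.2, q-value threshold 0.05). The treatment of duplicates and blacklisted regions is not given in the sources used here. The lists the authors deposited give for each peak the summit, the fold there (a ratio to the background nearby), the −log10 p, the −log10 q and a score made from the −log10 q. The score and the −log10 p were not used. Read counts are not in the lists, so no count test was possible, and a missing peak means only that the threshold was not passed.

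Peaks sharing 1 bp were merged on chromosomes 1 to 19, X and Y. The members and gene lists were chosen with earlier results of these data known. Regions were named by the protein-coding gene of RefSeq GRCm38.p6 with the nearest listed start, or nearest span end where none was listed. Distances are to that point. The annotation gives gene spans without strand. Starts and promoter sequences came from 21263 RefSeq promoters of 17492 of the 21887 protein-coding genes, with none on chromosome 18. Named were the 10 highest members, the 5 largest rises and 5 largest falls among called members, the leader of each list, the 3 regions on each side of the threshold and the longest run; other names were chosen after their values were seen. limma 3.58.1 with empirical Bayes tested normal scores with Benjamini-Hochberg adjustment over all regions fitted, and was tested on simulated data. Exact permutation tests compared 1 value per library. Same-numbered libraries did not deviate together (correlations of 0.05, -0.12 and -0.13), so the numbers were not taken as pairs. Alternatives were other measures, thresholds, merging, member numbers, a replicate block and each library left out. Python 3.11.15, numpy 2.4.6, pandas 2.3.3 and scipy 1.17.1 were used.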

Additional observations from a re-analysis of the deposited data

How the results depend on the processing

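The count of members called between the groups moved most. It was 127 in the test as reported, 1 by fold (2.94% of all regions called), 40 by fold without OB Fam20c KO replicate 3 (added after seeing the data, 24 higher and 16 lower, with 8.98% of all regions called), 74 with quantile-normalised log2 of the −log10 q (20.9% of all regions) and 75 with regions that had a peak in 5 or 6 libraries (12.6%). Leaving out 1 library at a time gave 57 to 147, with 12.1% to 26.6% of all regions called. With the replicate number as a block it was 95 (19.2%), and the shift in median standing stayed at -1.75 (exact p = 0.25, the pairing not being borne out by the libraries); without OB Fam20c KO replicate 3 the call count rose, whereas without OB Fam20c f/f replicate 3 it was 57, without OB Fam20c KO replicate 2 it was 68 and without OB Fam20c f/f replicate 2 it was 73. The shift in median standing was -2.84 when ranked within each whole list, 0.066 by fold, the reverse of the value by −log10 q, and -2.32 to -1.15 over the libraries left out. The difference in width ran from -168 to -77.7 bp, the latter without OB Fam20c KO replicate 3, and that in summit distance from 0.75 to 5.25 bp. The share at gene ends was 75% with 500 members, 74.9% with 2000 members and 68.4% to 78.5% with a library left out. The causes were not tested. Of the 10 named changed members, 100 of 120 alternative values kept their direction and call, and the other 20 were by fold: 14 lost the call and 6 changed sign, namely Ccnc (-0.38 by fold), Fggy (0.16 by fold and 0.22 by fold without OB Fam20c KO replicate 3), and under the latter Ift74 (0.27), Senp5 (0.14) and Tctex1d2 (0.064). The fold chose the members, so values by fold at the members were limited by the choice. The lists give no reads, so the counting error of a single peak is unknown.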

Other observations

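Members that were narrow, and members that were strong in OB Fam20c KO replicate 3, are given here as 2 sets that overlap only in part and were picked after their values were seen. There were 37 members under 600 bp wide, of which 25 were among the 50 highest and 4 were within 1 kb of a gene end (at Limd1, Gm13277, 2700097O09Rik and Raet1e). The −log10 q in OB Fam20c KO replicate 3 was a median of 0.218 of the median of the other 5 libraries at the members, with quartiles of 0.189 and 0.250.

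At 12 members it was above the median of the other 5 libraries, by a ratio of 1.03 to 1.39, and at 7 of these it was the highest of all 6. The 12 were 237 to 1410 bp wide. None was within 1 kb of an end of a protein-coding gene. They lay 37338 to 2348381 bp from the nearest start of such a gene (span end where no start was listed). They included 4 regions of chromosome 9, 3 of them between 3000118 and 3024662, 3 regions of chromosome 12 and chr2:98666550-98667321. The region chr9:35305219-35305591, near Rpusd4, had a −log10 q of 3251, 4775 and 3780 in OB Fam20c f/f and of 4060, 4734 and 5286 in OB Fam20c KO. Whether such regions were on a list of regions with excess signal was not tested.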
